A study of Caenorhabditis elegans with 2 samples.

Results

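CEH-2 belongs to the empty spiracles and EMX family of homeodomain factors, which bind DNA at short cores such as TAATTA. Chromatin was prepared from whole hermaphrodite late embryos of Caenorhabditis elegans strain OP323, a stable transgenic line in which CEH-2 carries GFP and FLAG at its C terminus, and was immunoprecipitated with an antibody against GFP. The embryos were taken 5 hours after eggs had been bleached to synchronize them. Both biological replicates, 2 in number, were of the tagged strain and formed 1 group, and no untagged or second condition was analysed here. The regions described are the authors' reproducible peaks that lie away from promoters and small RNA genes. They were chosen by 3 criteria: membership in the optimal peak set that the authors derived with the irreproducible discovery rate (IDR, which weighs how alike replicates rank their peaks), a summit outside every promoter window, and a summit more than 300 bp from every tRNA, snoRNA and snRNA gene. A promoter window reached 1000 bp upstream and 200 bp downstream from every start of a protein-coding transcript. Of 1453 reproducible peaks, 1430 lay on the nuclear chromosomes, and 381 of those (26.6%) met the rule and are called members below. Of these, 19 pairs of neighbours fell in the same peak of each replicate, so the 381 rest on 362 separate regions of the replicates, and intervals that count 381 are somewhat too narrow. A further 896 had summits in promoter windows, 831 of them away from small RNA genes, and 153 lay outside the windows but within 300 bp of a small RNA gene.

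In the compact C. elegans genome most regulatory DNA lies just upstream of genes, and distal elements are known mainly from long introns, above all first introns, and from the longer spaces between genes. Transcription factor peaks in whole embryos come from many tissues at once, and the same open regions are often recovered with many unrelated factors. A tagged transgene can also add copies of its own locus. RNA polymerase III transcribes the tRNA genes and also free-standing noncoding genes such as those of the signal recognition particle (SRP) RNA and the RNase P RNA. On the X chromosome of hermaphrodites, the dosage compensation complex is recruited to dispersed sites that hold a motif named MEX, whose consensus includes the letters CGCGCAGGG.

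Sequences of some members are given first, most of them chosen for words that only a minority of members hold. Each is the summit base with 50 bases to either side. All are from the RefSeq genome of WBcel235 (the assembly of ce11), plus strand, 5′ to 3′. The first 4 windows are the strongest members, other than those on the chromosome from which no sequence is printed here, that hold both GAGAGA and AGACGCAG on either strand. Capitals mark these letters, or their reverse complements TCTCTC and CTGCGTCT, and where the matches overlap the whole stretch is in capitals. They lie at chrIII:10096673-10096773 in an intron of spop-1, chrV:16356022-16356122 beside pptr-1, chrIII:12178256-12178356 beside gly-11 and chrX:17184521-17184621 beside sid-3.
spop-1: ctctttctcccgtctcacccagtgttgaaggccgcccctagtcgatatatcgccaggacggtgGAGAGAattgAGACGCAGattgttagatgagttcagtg
pptr-1: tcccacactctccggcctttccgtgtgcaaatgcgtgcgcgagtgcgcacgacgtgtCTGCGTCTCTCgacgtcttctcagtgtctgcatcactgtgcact
gly-11: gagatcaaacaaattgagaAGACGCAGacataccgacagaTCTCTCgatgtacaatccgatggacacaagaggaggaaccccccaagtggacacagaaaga
sid-3: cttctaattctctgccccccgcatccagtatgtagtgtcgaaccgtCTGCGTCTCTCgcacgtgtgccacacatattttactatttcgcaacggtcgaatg
The next 6 windows are all members that hold CGCGCAGGG or its reverse complement CCCTGCGCG, in capitals, in order of signal. This motif was picked after the sequences of the strongest members had been read. The windows lie at chrX:6296536-6296636 in an intron of mom-1, chrX:806640-806740 beside F25E2.2, chrX:4209196-4209296 beside hpk-1, chrX:11094159-11094259 beside W02H3.3, chrX:1837827-1837927 beside WBGene00020828 and chrX:13514517-13514617 beside cdk-4. In the second of them an AGACGCAG match is also in capitals.
mom-1: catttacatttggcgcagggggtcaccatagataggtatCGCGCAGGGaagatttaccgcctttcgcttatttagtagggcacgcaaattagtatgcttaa
F25E2.2: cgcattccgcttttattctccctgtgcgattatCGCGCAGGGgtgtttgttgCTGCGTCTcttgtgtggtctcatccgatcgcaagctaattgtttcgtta
hpk-1: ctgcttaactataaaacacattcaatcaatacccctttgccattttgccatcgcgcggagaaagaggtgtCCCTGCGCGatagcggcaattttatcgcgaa
W02H3.3: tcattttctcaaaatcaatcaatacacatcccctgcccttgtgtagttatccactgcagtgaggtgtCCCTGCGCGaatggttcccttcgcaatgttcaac
WBGene00020828: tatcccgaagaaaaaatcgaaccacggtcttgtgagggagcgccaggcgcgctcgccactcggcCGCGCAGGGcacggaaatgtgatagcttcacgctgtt
cdk-4: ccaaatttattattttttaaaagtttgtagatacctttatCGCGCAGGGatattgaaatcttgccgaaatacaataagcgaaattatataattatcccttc
The strongest member of all, in an intron of Y56A3A.7 at chrIII:11946488-11946588, and 2 strong intergenic members, beside F58D12.1 at chrV:14055195-14055295 and beside H12I13.1 at chrII:6061657-6061757, shared another run of letters, GGAGTACAC or its reverse complement GTGTACTCC, in capitals. It too was picked after the sequences had been read.
Y56A3A.7: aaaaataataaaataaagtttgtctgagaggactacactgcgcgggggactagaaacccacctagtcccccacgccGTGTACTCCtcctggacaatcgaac
F58D12.1: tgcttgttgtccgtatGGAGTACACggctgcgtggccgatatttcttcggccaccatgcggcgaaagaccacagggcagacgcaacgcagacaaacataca
H12I13.1: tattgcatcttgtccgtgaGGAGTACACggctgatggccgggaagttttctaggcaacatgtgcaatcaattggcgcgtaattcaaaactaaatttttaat
The last 2 windows show strong members with none of these runs in full, the second strongest of all in an intron of Y39A1C.1 at chrIII:10856975-10857075 and the strongest intergenic one, inside the noncoding gene F36H1.17 near alh-3 at chrIV:11026118-11026218. The window near alh-3 does hold GAGTACAC, which is GGAGTACAC without its first G.
Y39A1C.1: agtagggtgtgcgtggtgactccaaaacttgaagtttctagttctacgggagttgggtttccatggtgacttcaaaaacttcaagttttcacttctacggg
alh-3: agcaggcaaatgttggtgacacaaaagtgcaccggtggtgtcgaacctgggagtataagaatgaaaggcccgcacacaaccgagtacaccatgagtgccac

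Most members lay between genes or inside introns, and almost none in coding sequence. By the annotation of protein-coding genes, 220 summits (57.7%, 95% Wilson interval 52.7 to 62.6) were intergenic and 148 (38.8%, 34.1 to 43.8) were in introns. Only 6 (1.57%) were in coding exons, 5 in 5′ UTR exons and 2 in 3′ UTR exons. Among the 9149 peaks of the pooled relaxed list that met the same location rule but were not reproducible, 34.0% were intergenic, 35.9% intronic and 25.7% in coding exons. Of all 73.4 Mb of nuclear sequence that could hold a member, 33.9% was intergenic, 36.7% intronic and 25.7% coding exon, so the relaxed-only shares lay close to those of the sequence available, and the members' intergenic and coding-exon shares did not. Per Mb available there were 8.84 intergenic, 5.49 intronic and 0.318 coding-exon members, and 18.0 in 5′ UTR exons, where 5 members lay on 0.277 Mb, against 34.0 reproducible summits per Mb of promoter window. The differences between sets were not tested.

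**Figure D1:**
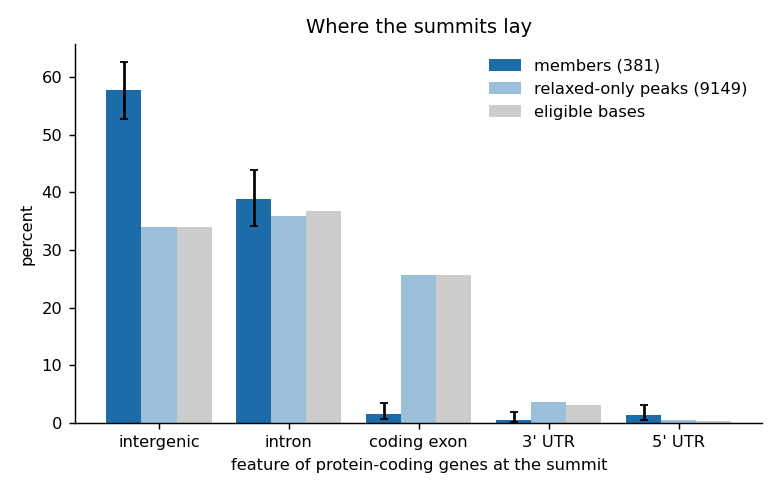
Share of summits (percent) in each feature of protein-coding genes for the 381 members, with 95% Wilson intervals as bars, for the 9149 relaxed-only peaks under the same location rule, and for the bases that could hold a member. Members stand at 57.7% intergenic and 1.57% coding exon, while the other bars stand at 34.0% and 33.9% intergenic and 25.7% coding exon.

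The rule on reproducibility kept few relaxed peaks, and which feature they lay in went with how many it kept. Of 16022 pooled relaxed peaks on nuclear chromosomes 8.93% were reproducible, and of the 9530 that met the location rule 4.0% were. The share was 6.60% for intergenic relaxed peaks (220 of 3331), 4.31% for intronic (148 of 3435), 9.43% in 5′ UTR exons (5 of 53), 0.588% in 3′ UTR exons (2 of 340) and 0.254% in coding exons (6 of 2360). These shares describe the authors' selection on the same measurements and are given as a description. At the limit of the selection, the weakest members, beside cdk-4, in an intron of Y56A3A.7 and in an intron of Y111B2A.12, had signals of 86.37, 86.42 and 86.83. The strongest peaks left out by it, near col-36, nhr-10 and mau-2, had 86.22, 86.20 and 85.84. Signal here is the deposited value that the authors' caller gave each peak on the pooled reads, and the sources used here do not name its scale.

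The limits of the location rule also ran through continuous ground. The members nearest to a promoter window lay 2 bp, 7 bp and 16 bp outside it, upstream of ppm-2 (signal 150.4), dhs-8 (158.0) and svop-1 (90.27). The peaks left out nearest to an edge lay 15, 23 and 24 bp inside the windows of gid-2 (151.9), M01F1.9 (1236) and F09C8.2 (157.7). The peak near M01F1.9 was thus left out by 23 bp with a signal above that of every member. Around small RNA genes there was a gap, since the nearest members lay 535, 636 and 738 bp away and the farthest peaks left out lay 213, 174 and 157 bp away. The peaks of 52 members (13.6%) reached into a promoter window although their summits did not.

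Member signals ran from 86.37 to 422.5 with a median of 109.8 and quartiles of 95.45 and 138.2. Summits in promoter windows had a median of 131.6 and a highest value of 1749. The strongest member ranked 26 among the nuclear reproducible peaks, 8 members were among the 100 strongest and 28 had a signal above 200. Members therefore lay toward the weak end of the reproducible set, with a small strong tail. Intergenic and intronic members had medians of 110.2 and 109.8.

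Both replicates held a peak at nearly every member, which the selection on these same replicates made nearly certain. The relaxed lists searched held 18411 nuclear peaks in replicate 1 and 15161 in replicate 2. A replicate 1 peak overlapped 380 of 381 members and a replicate 2 peak all 381, and in 353 (92.7%) both replicate summits lay within 100 bp of the pooled summit. The replicate signals, each on its own scale, ran from 24.23 to 194.0 with a median of 55.60 in replicate 1 and from 24.75 to 223.6 with a median of 60.16 in replicate 2. The value was higher in replicate 1 for 176 members. Taken among all peaks of its replicate, a member was less secure: 315 were within the first 1430 of replicate 1, 306 within the first 1430 of replicate 2, and 248 (65.1%, 60.2 to 69.7) within both. The member without a replicate 1 peak was the summit at 9381368 in an intron of ppfr-1, which encodes a protein phosphatase 4 regulatory subunit (pooled 89.10, replicate 2 77.5).

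**Figure D2:**
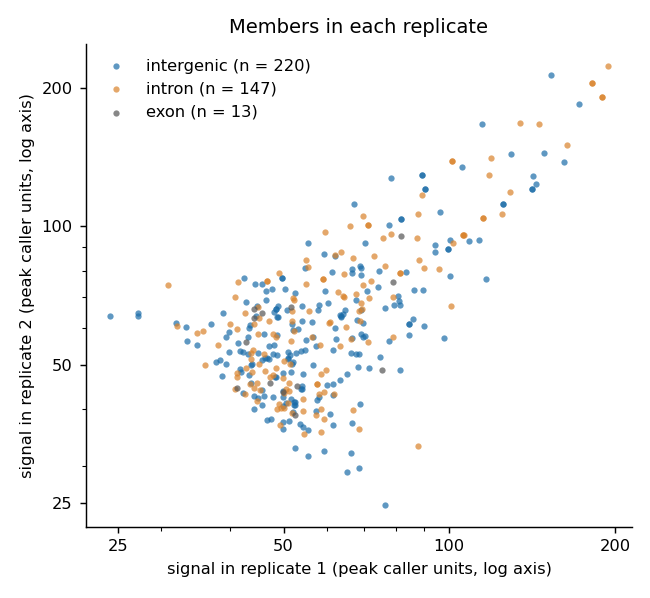
Peak caller signal of each member in replicate 1 (x axis) and replicate 2 (y axis), both on log axes, for 380 members with a peak in both, coloured by intergenic, intronic and exonic summits. Points run from 24.23 to 194.0 on the x axis and from 24.75 to 223.6 on the y axis. Intergenic and intronic members overlap throughout, and the exonic ones reach 81.7 and 95.3, at pks-1.

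The 20 strongest members held no common kind of gene. The first, in intron 3 of Y56A3A.7, 479 bp from a transcript start, had a pooled signal of 422.5 and replicate signals of 194.0 and 223.6. The second, in intron 1 of Y39A1C.1, 249 bp downstream of the start and so just past the promoter window, had 393.2, 181.8 and 205.3. An intron of mom-1, whose product is a Porcupine-type acyltransferase needed to secrete Wnt ligands, held the sixth at 308.0 (145.7 and 167.2). Introns of hmt-1, an ABC transporter gene for heavy metal tolerance, held 2 separate members of 316.0 and 251.7. Others in the 20 were in intron 1 of let-526, a SWI/SNF subunit gene, at 241.6, and in intron 1 of ldb-1, which encodes a LIM domain binding protein, at 241.2. All of these were strong in both replicates, and the best-ranked was number 29 in replicate 1 and 25 in replicate 2.

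Among the intergenic members of that list, the strongest lay inside F36H1.17, 298 bp past the end of the aldehyde dehydrogenase gene alh-3, at 349.9 (171.9 and 185.0). It was followed by one 5165 bp upstream of Y41D4B.24 at 298.5 (161.5 and 138.1) and one 582 bp downstream of F58D12.1 at 290.9 (148.5 and 144.4). The member beside F25E2.2 had 281.2 (114.9 and 167.0) and that beside H12I13.1 had 279.5 (142.2 and 128.7). The 2 values of a member differed most, among these, beside F25E2.2. One 2114 bp upstream of sup-26, an RNA-binding protein gene, had 275.4, one 1325 bp past hpk-1, a homeodomain-interacting protein kinase gene, had 268.7, and one 6286 bp upstream of F13D11.3 had 258.1. Several of these members lay past the 3′ end of the nearest gene. The rule had removed summits within 1000 bp before a start, so strong intergenic members close to a gene could remain mainly at its 3′ side.

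The tagged gene itself held 2 of the 20. Their summits, at chrI:6047927 and chrI:6048135, lay in intron 3 of ceh-2 with pooled signals of 380.4 and 252.4, and both overlapped the same replicate peaks (189.3 and 190.9), so they are not separate observations. How many copies of the locus the strain carries is not given in the sources used here, and the part of transgene copies in these 2 values was not tested. No other homeobox gene had a member of comparable signal.

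Member summits lay a median of 2247 bp from the nearest protein-coding transcript start, with a range from 217 to 20201 bp. The median moves with the promoter window of the rule, to 1459 bp with windows from 500 bp upstream and 2942 bp with windows from 2000 bp. Intronic members lay at 1806 bp and intergenic members at 2580 bp, close to the medians of 1643 and 2517 bp for relaxed-only peaks of the same kinds. Of the 381, 39 were within 1000 bp of a start, all of them downstream of it by the rule, 134 were at 1000 to 2000 bp, 155 at 2000 to 5000 bp and 53 (13.9%) beyond 5000 bp. The farthest were in an intron of gcn-1, a regulator of translation, at 20201 bp (signal 133.7, replicates 69.5 and 66.0), in a coding exon of the polyketide synthase gene pks-1 at 15157 bp (177.5), in an intron of the Ras exchange factor gene sos-1 at 13948 bp (90.92) and in an intron of ppfr-1 at 13947 bp (100.7). The farthest intergenic member lay 11289 bp from a start, beside got-2.2 (113.0). These 5 signals ran from 90.92 to 177.5, with none among the 20 strongest.

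**Figure D3:**
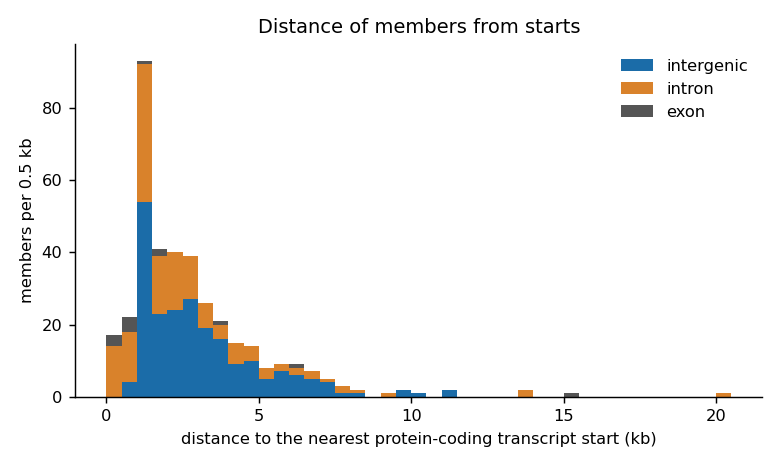
Number of members per 0.5 kb of distance from the nearest protein-coding transcript start (kb), stacked by intergenic, intronic and exonic summits. Members at 1000 to 2000 bp number 134 and those at 2000 to 5000 bp 155, and the tail reaches 20201 bp.

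The location rule removed summits within 1000 bp upstream of a start and set no such limit past the end of a gene. The split of intergenic members by side of the gene therefore depends in part on the rule, and this was not corrected for. The summit was on the upstream side of the nearest gene body in 129 of 220 (58.6%, 52.0 to 64.9), and 44 lay within 1000 bp past the end of that gene. By the strands of both neighbours, 75 (34.1%) were between divergent genes, 124 (56.4%) between genes on 1 strand and 21 (9.55%) between convergent genes. Relaxed-only intergenic peaks gave 32%, 56.0% and 11.8%, each within the members' intervals.

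Intronic members sat in long introns. The median length of their introns was 3230 bp (238 to 19927), against 68 bp for all annotated introns and 1143 bp for introns with relaxed-only peaks. Length sets how many bases of an intron can hold a peak, so the comparison with relaxed-only peaks is the closer one, and it was not tested. Intron 1 of the transcript held 73 of 148 (49.3%, 41.4 to 57.3), and 34.6% of relaxed-only intronic peaks. Where introns of several transcripts held a member summit, the shortest was taken, and among equals the lowest number. That choice bears on both the lengths and the share in intron 1. In all 129 genes held a member in an intron or exon and 24 held more than 1. Intron 1 of pqn-41, which encodes a glutamine-rich protein, held a run of 3 members, at 182.2, 134.5 and 108.6, within an intron of 7776 bp. Introns of ppfr-1 held another run, at 101.6, 89.10 and 91.60. The third run of 3, each within 2000 bp of the next, was intergenic, between irld-55 and Y37A1B.7 on chromosome IV, at 140.3, 161.6 and 128.2. The last of these had its summit inside the precursor of the microRNA mir-52, a member of the mir-51 family, and shared its replicate peaks (81.7 and 103.8) with the one before it.

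The 6 members in coding exons were in pks-1 (177.5), Y53F4B.9 (157.1), golg-4 (125.6), ZK112.4 (106.8), pals-26 (90.08) and col-42 (87.59). The 5 in 5′ UTR exons were in unc-62 (117.3), rsbp-1 (111.3), ZC443.4 (93.64), ZK484.6 (89.17) and egl-30 (87.42), each within 1000 bp of a start. The 2 in 3′ UTR exons were in zig-11 (100.2) and nhr-119 (97.16). All but pks-1 and Y53F4B.9 had signals under 130.

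Noncoding genes other than tRNA, snoRNA and snRNA genes held 72 members (18.9%, 15.3 to 23.1), 24 of them in introns and 48 between protein-coding genes, and 139 members lay within 300 bp of one. Of relaxed-only peaks 6.08% were inside such a gene. Members inside had a median signal of 117.5 and the other members 109.0, a gap smaller than the spread within either. Most of these genes were of the general ncRNA class: 85 of 7764 such genes held a member, as did 4 of 194 lincRNA genes, 2 of 100 antisense RNA genes, 1 of 261 microRNA genes, 2 of 2128 pseudogenes, 0 of 15363 piRNA genes and 0 of 20 rRNA genes. Genes of this kind can overlap, and 1 summit can lie in several. The lincRNA members were linc-128 (199.0), linc-91 (186.9), linc-146 (149.9) and linc-129 (99.84), and the antisense genes were F48C1.15 opposite let-526 (241.6 and a second summit at 152.9) and anr-20 opposite ppfr-1 (91.60).

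Of the RNA polymerase III genes that the rule did not exclude, those of the SRP RNA and the RNase P RNA were looked up by name. Their signals lay on both sides of the members' median of 109.8. All 5 annotated SRP RNA genes had a member within 300 bp, and in 4 the summit was inside the gene. The pooled signal was 172.2 at srpr-2.2 (replicates 95.8 and 80.7), 147.5 at srpr-2.1 (69.1 and 78.2), 104.7 at srpr-1.2 (42.5 and 64.8) and 94.02 at srpr-3 (52.2 and 41.4). Near srpr-1.1 the summit, of signal 90.08, lay 146 bp outside the gene, in the coding exon of pals-26. The RNase P RNA gene rpr-1, within intron 1 of the Integrator subunit gene ints-8, had 263.0 (119.4 and 141.2). Some of these genes share sequence with other places in the genome, where reads could also be placed. In the summit windows at srpr-2.1, srpr-2.2 and srpr-1.2, 98.6%, 57.7% and 35.2% of the 31-base stretches occurred more than once in the genome. At srpr-3, at rpr-1 and beside srpr-1.1 the share was 0%. How the authors treated such reads is not given in the sources used here. These genes were picked out after the values were seen.

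The internal promoter element of tRNA genes, the B box, was rare among the members. Its letters, searched on both strands as GTTCGANNC, were in the windows of 5 members (1.31%, 0.562 to 3.03), against 27.5% of the 218 reproducible summits near small RNA genes. The share was 0.787% and 0.262% in the flanks, 0.874% in relaxed-only peaks and 0.749% in genome tiles, so the members lay near the background. The 5 were F36H1.17 (349.9), and those beside dhs-8 (158.0), in Y57G11C.22 (134.6), beside sid-3 (131.0) and beside ceh-5 (94.64). Not finding these letters in a window says nothing on whether a polymerase is present.

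The commonest short words at member summits were GA-rich. GAGAGA, on either strand, was in 143 of 381 summit windows (37.5%, 32.8 to 42.5), and in 10.8% and 7.09% of windows of equal length centred 300 bp to the left and right. The share was 31.8% for intronic and 41.4% for intergenic members, 21.3% for promoter summits away from small RNA genes, 14.2% near small RNA genes, 11.3% for relaxed-only peaks and 5.18% for tiles of the same length over the nuclear genome. Of all 2080 6-mers GAGAGA had the largest excess over the flanks, 28.6 percentage points, while AAAAAA was lower at members by a larger margin. The next was AGAGAG, in 29.1% of members and 7.61% of flank windows, and then AGAGAC at 26.8% and 5.64%. CGTCTC followed at 23.9% and 4.72%, AGACGC at 20.2% and 2.62%, and ACGCAG at 18.9% and 2.36%. CGCAGA was at 18.6% and 3.15%, AAGAGA at 24.9% and 10.5%, CTCTCC at 19.4% and 5.12% and CAGAGA at 20.5% and 6.30%. Many of these overlap one another, and each was more frequent at members than at promoter summits, where AGAGAG stood at 17.2% and AGACGC at 12.8%. Members with GAGAGA had a median signal of 106.3 and those without it 114.6, and 11 of the 50 strongest members had it.

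Joined, AGACGC and its shifted neighbour ACGCAG give the 8-mer AGACGCAG, which was in 51 members (13.4%), 1.57% and 0.787% of the flanks, 7.34% of promoter summits, 1.87% of relaxed-only peaks and 0.521% of genome tiles. As in the 4 windows printed first, 35 members held both it and GAGAGA. Of the 5812 AGACGCAG matches in the nuclear genome 2.27% lay in member peaks, which cover 0.161% of the bases, and 4.94% in all reproducible peaks, which cover 0.569%. Most genomic copies therefore had no reproducible peak. CACACA was in 19.9% of members, 8.14% and 8.66% of flanks and 14.7% of promoter summits. GGCCAC showed the opposite order between classes, with 20 members (5.25%) against 17.7% of promoter summits and 15.1% of summits near small RNA genes.

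**Figure D4:**
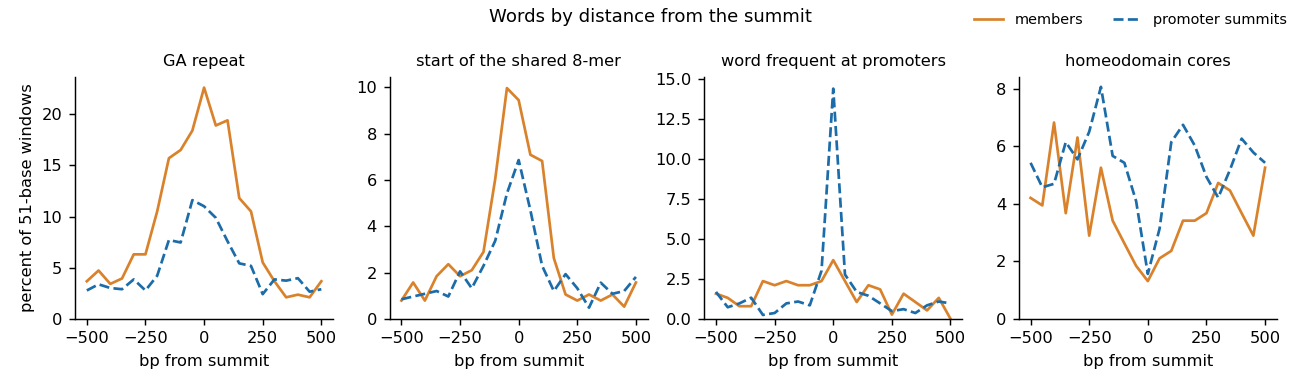
Percent of 51-base windows (y axis) that hold, on either strand, GAGAGA in the first panel, AGACGC in the second, GGCCAC in the third and a homeodomain core in the last, by distance of the window centre from the summit (bp, x axis), for members (solid) and promoter summits (dashed). GAGAGA and AGACGC are highest within 50 bp of member summits and stand above promoter summits there, GGCCAC peaks mainly at promoter summits, and the homeodomain cores dip at both.

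The homeodomain cores were scarcer at member summits than beside them. TAATTA or TAATGA was in 11 windows (2.89%, 1.62 to 5.10), and in 8.92% and 8.40% of the flanks and 10.2% of relaxed-only peaks. The other reproducible summits were also low, with 4.33% of promoter summits and 2.29% of summits near small RNA genes. Without replicate 1, on the strongest peaks of replicate 2 alone, the share at members was 5.670%, above the upper end of the members' interval. Within 100 bp of the summit it was 7.349%, but those windows are longer and hold more words, so that value does not compare with the shares above. Base composition moved with this: the median GC content was 50.5% at members, 35.6% and 36.6% in the flanks, 43.6% in relaxed-only peaks and 34.7% over genome tiles. It was 49.5% at promoter summits and 51.5% at summits near small RNA genes, so it was not particular to members. AAAAAA was in 11.5% of members and 44.1% of flank windows. The part of base composition in the scarcity of the cores was not tested. A window without these letters says nothing on what CEH-2 binds.

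The chromosomes differed in how many of their members were intergenic. The X chromosome had 66 of 84 (78.6%, 68.7 to 86.0), chromosome II 34 of 49 (69.4%, 55.5 to 80.5), IV 31 of 51 (60.8%, 47.1 to 73.0) and V 24 of 42 (57.1%, 42.2 to 70.9). Chromosome III had 36 of 82 (43.9%, 33.7 to 54.7) and I 29 of 73 (39.7%, 29.3 to 51.2). The intervals of X, II, IV and V overlap, and no difference was tested. Intergenic sequence was 41.1% of the eligible bases on X, 38.7% on IV, 35.4% on V, 33% on II, 26.8% on III and 25% on I, an order that matches the members' in part. The number of members per Mb was 7.91 on III, 6.51 on I, 6.13 on X, 4.54 on II, 3.96 on IV and 2.90 on V. Median signals ran from 102.9 on IV to 117.7 on X.

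The letters CGCGCAGGG were found at reproducible summits of the X chromosome and of no other. The nuclear genome holds 77 copies, 33 on X and 44 on the autosomes. On X, 16 of the 33 lay in a reproducible peak, 11 of those in a member, and 22 in a relaxed peak. On the autosomes 0 of 44 lay in a reproducible peak and 6 in a relaxed one. Within 50 bp of the summit, 10 reproducible peaks held it, all on X, and 6 of these were members (7.14% of the 84, 3.31 to 14.7). Their pooled and replicate signals were 308.0 (145.7 and 167.2) in mom-1, 281.2 (114.9 and 167.0) beside F25E2.2, 268.7 (143.7 and 123.8) beside hpk-1, 206.8 (78.5 and 127.2) beside W02H3.3, 135.6 (69.2 and 65.8) beside WBGene00020828 and 86.37 (38.6 and 47.3) beside cdk-4. They thus ran from the sixth strongest member to the weakest, with both replicates high in the first 3. In the flanks of members the count was 0 of 381 on each side, in relaxed-only peaks it was 3 of 9149, and in genome tiles 72 of 992797. The motif was chosen after seeing the sequences, so these counts are a description with no test. Sites of the dosage compensation complex were not mapped here, and the match is one of letters.

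**Figure D5:**
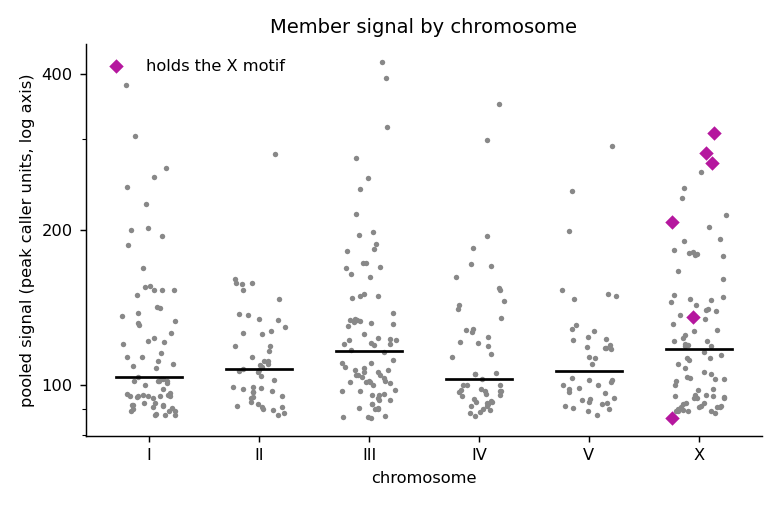
Pooled signal of each member (log axis) by chromosome, with the median as a line, and members whose summit window holds CGCGCAGGG as diamonds. All 6 diamonds are on X, at signals from 86.37 to 308.0.

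GGAGTACAC was at 5 member summits, with signals of 422.5 in Y56A3A.7, 290.9 beside F58D12.1, 279.5 beside H12I13.1, 142.6 beside C34F6.10 and 130.7 in F53F1.3. Over all reproducible peaks it was at 44 summits with a median signal of 250.9, and 39 of these were promoter summits away from small RNA genes (4.69% of 831, against 1.31% of members). Of its 1456 genomic copies 3.50% lay in reproducible peaks and 13.9% in relaxed ones. The members with it were thus part of a group that lay mostly in promoters.

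Repeated sequence touched few members. In 32 members at least 1 of the 31-base stretches of the window occurred elsewhere in the genome, and in 3 all did: beside wrb-1 (237.8, replicates 125.2 and 111.7), beside the kinesin gene klp-7 (214.7, 89.1 and 129.3) and beside ark-1 (127.7, 59.6 and 72.3). The position of these 3 signals is uncertain to that extent. The soft-masked share of the window had a median of 3.96% at members and 28.7% in the flanks.

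Of 19865 protein-coding gene symbols 331 (1.67%) held or were nearest to a member, and nearest does not mean regulated. The lists of cytoskeleton and cell adhesion genes (7 of 45, 15.6%), Wnt, Notch, TGF-beta and EGF signalling genes (6 of 48, 12.5%) and pan-neuronal and synaptic genes (4 of 33, 12.1%) had the highest shares. Genes with long introns and long flanks offer more ground for a nearest member, and that was not corrected for. Also above the background were body wall muscle genes (3 of 34, 8.82%), pharynx genes (2 of 26, 7.69%) and the bHLH, T-box, forkhead and SOX genes (5 of 77, 6.49%). Homeobox genes had 3 of 97 (3.09%), nuclear hormone receptors 8 of 274 (2.92%), and chromatin and transcription regulators 1 of 49 (2.04%). The last list did not hold let-526, the SWI/SNF subunit gene with a member at 241.6, so its share depends on which genes were listed. Ribosomal protein genes (1 of 81, 1.23%) and cuticle collagens (2 of 177, 1.13%) had counts too small to set them apart from the background of 1.67%. F-box genes (2 of 315, 0.635%) and chemoreceptors (1 of 1301, 0.0769%) lay below it. Neuropeptide genes (0 of 144), C-type lectins (0 of 237) and cytochrome P450 and UGT genes (0 of 141) had none. Histone genes (0 of 50) had none either, in a list too short to set apart from the background. No list was tested against the background.

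Among the adhesion and cytoskeleton genes, ajm-1, an apical junction protein, held a member in an intron at 180.2 (replicates 69.9 and 105.5), and dlg-1, the Discs large homologue of the same junction, held one at 120.2 (60.7 and 61.8). Intergenic members lay beside unc-70, which encodes beta spectrin, at 152.8 (69.0 and 82.0), and beside the GTPase gene rho-1 at 126.7 (69.7 and 61.6). An intron of the cadherin gene hmr-1 had 109.7, with 87.7 in replicate 1 and 33.3 in replicate 2, the most uneven pair of the list. In the signalling list an intron of lin-17, a Frizzled receptor for Wnt, had the highest value at 168.9 (66.0 and 100.1). That list did not hold mom-1, whose intron had 308.0. The Ror receptor gene cam-1 had 109.8, the ERK kinase gene mpk-1 107.1 and the Nemo-like kinase gene lit-1 101.6.

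The neuronal members were all in introns or a 5′ UTR exon: the kinesin gene unc-104 at 127.1 (64.9 and 60.3), unc-33, of the CRMP family, at 115.1 (59.6 and 48.7), the synaptojanin gene unc-26 at 104.9 (57.5 and 45.4) and the G protein gene egl-30 at 87.42 (44.1 and 66.0). Of the muscle list, the PINCH gene unc-97 had 146.8 (84.6 and 58.1), the actin gene act-1 103.3 and the twitchin gene unc-22 92.11. CEH-2 is known from the anterior pharynx, and of the pharynx list peb-1 had 106.0 (52.3 and 59.3) and pha-4, the FoxA factor that specifies the organ, 98.06 (52.7 and 53.1). All of these lay below the upper quartile of the members except unc-97.

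The transcription factor genes of the lists had moderate signals at their members, except ceh-2. The lists do not hold every gene of these kinds. After ceh-2 the homeobox genes were unc-62, a Meis homologue, at 117.3 (51.5 and 66.6) and ceh-5 at 94.64 (39.4 and 57.5). The FoxO gene daf-16 had 113.4 (58.2 and 55.1), hlh-10 102.2, fkh-7 98.24 and hlh-29 94.74. Among nuclear hormone receptors nhr-3 had 178.5 in an intron (88.2 and 84.3), nhr-17 134.3, nhr-21 108.2 and daf-12, the receptor for dafachronic acids, 103.0. The chromatin gene zfp-1, an AF10 homologue, had 137.9 (59.1 and 76.9). Outside ceh-2, nhr-3 was the only one of these above the upper quartile of the members, 138.2.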

How the data were processed

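ChIP-seq of tagged CEH-2 was deposited as peak lists. Per the file headers and the listing deposited with each sample, the authors called a relaxed list per replicate and on both replicates together, each time against a control, and obtained the optimal set from these by IDR on ce11. The deposited signal value is what the authors' caller assigned to each peak. The caller, its settings, the aligner, any filter and the treatment of reads that map to several places were not given in the sources used here. Control reads were not analysed here. No list holds read counts, so depth is unknown and intervals reflect only how many peaks were counted. Lists on ce10 were not used.

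The summit of a peak was read from the deposited offset and placed, 1-based, on gene models of Ensembl release 115 for WBcel235. A member was matched to a replicate when their peaks shared 1 bp, and the strongest such peak gave the value. Nearest gene means the protein-coding gene that holds the summit, otherwise the one whose body end is nearest. Sequence came from the RefSeq genome of WBcel235, in windows of 50 bases to either side of summits, and of equal length centred 300 bp to the left and right. Shares have 95% Wilson intervals. No test was made between sets, since the members were selected on these measurements. The location rule and the word count were tested on simulated data. The work used pandas 2.3.3, numpy 2.4.6, scipy 1.17.1 and matplotlib 3.10.9 under Python 3.11.15.

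The members and lists were chosen with earlier results of these data known. Named regions are the 20 strongest members, the 8 strongest each in introns, between genes and inside other noncoding genes, members at ceh-2, stretches of 3 or more, the 5 farthest from a start, the 5 weakest, those nearest to each limit, and up to 4 genes per list. Exonic, SRP RNA, RNase P RNA, B box, repeated and long-motif members were added after the values were seen. Alternatives were other sets of peaks, windows, distances and matches.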

Additional observations from a re-analysis of the deposited data

How the results depend on the processing

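Alternatives were computed for 10 shares, medians and counts. Of 78 values 61 stayed within the interval of the main share or median, or within 1.5 times the main count. The number of members was 381, with 511 for promoter windows from 500 bp, 266 for windows from 2000 bp and 329 with the whole peak outside windows, and the upper 50% of the reproducible peaks by signal gave 132, with a median signal of 153.7 and GAGAGA in 25.76%. Each replicate alone gave 388 to 404 members, 38.12% to 39.43% in introns, 55.67% to 56.68% between genes, a median distance of 2252 to 2256 bp, 15.98% to 17.57% in other noncoding genes, 34.28% to 38.37% with GAGAGA, a GC content of 49.50% to 50.50%, and TAATTA or TAATGA in 2.970% to 5.670%, the last without replicate 1. The median signal is on another scale in single replicates and is not given for them. Promoter windows from 500 bp put 33.46% of members in introns and 63.21% between genes, with a median distance of 1459 bp. Windows from 2000 bp gave 2942 bp, and keeping the whole peak outside windows gave 2546 bp. Within 25 bp of the summit GAGAGA was in 22.57%, the cores in 1.312% and GC content was 50.98%. Within 100 bp they were 55.64%, 7.349% and 49.25%, since a wider window holds more words. Members matched in both replicates fell from 99.74% to 92.65% with summits within 100 bp and to 65.09% with the strongest peaks only. Other causes were not tested. No paired analysis was possible because there is 1 group. Depth is unknown, so what it limits cannot be stated.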

Other observations

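Peak width went with strength. Most members shared a width of 456 bp, and 32 (8.40%) were narrower, against 24.4% of promoter summits. The narrower members had a median signal of 235.7 and the others 106.0, and 16 of the 20 strongest were narrower.

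Of 39 pairs of neighbouring member summits within 2000 bp, 19 were 199 to 231 bp apart, 0 were over 250 and up to 500 bp apart and 20 were farther apart. The peaks of 38 members overlapped another reproducible peak. In all 19 close pairs, the one at ceh-2 included, both summits fell in the same peak of each replicate.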
